A study of Mus musculus with 21 samples.

Results

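Transthyretin and the mRNAs that stand next to it in retinol and thyroid hormone transport were followed through an RNA interference (RNAi) experiment in mouse liver cells. The set holds 4 genes, chosen by symbol and matched to the Ensembl identifiers of the deposited tables, and all 4 were found among the 9657 genes listed there. They are Ttr (ENSMUSG00000061808), Rbp4 (ENSMUSG00000024990), Alb (ENSMUSG00000029368) and Rdh7 (ENSMUSG00000040134). The libraries are QuantSeq 3′ mRNA-seq, a method that reads 1 short fragment near the 3′ end of each polyadenylated RNA, made from primary hepatocytes of wild-type mice and collected on day 1. PBS is the control group, with 3 libraries. The RNAi agents TTR-1236, TTR-1186 and Reference 4, each directed at Ttr, were given at 0.2 µM or 2 µM, with 3 libraries for each agent and dose, which makes 7 groups and 21 libraries. No library received an RNAi agent against another target, so an effect of losing Ttr and an effect of receiving an agent cannot be told apart in any comparison with PBS. Nothing in the labels ties the 3 libraries within each group to different animals or cell preparations, and p-values therefore measure the spread between these libraries, which may be technical.

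Transthyretin is a plasma protein made mainly by hepatocytes, which carries thyroxine and also binds retinol-binding protein. Rbp4 encodes that retinol-binding protein, which leaves the liver loaded with retinol and is kept in the circulation by its complex with transthyretin. Alb encodes albumin, a carrier of many ligands that also takes up thyroid hormone with low affinity. Rdh7 encodes a member of the retinol dehydrogenase family, enzymes that oxidise retinol and steroids inside the cell. The question was whether loss of the Ttr mRNA moved the mRNAs of its binding partner and of these related proteins.

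In mm10 coordinates Rbp4 lies on chromosome 19 from 38116629 to 38125281 on the minus strand. Alb lies on chromosome 5 from 90460897 to 90476602 on the plus strand, and Rdh7 on chromosome 10 from 127884028 to 127888817 on the minus strand. Like Ttr, they are protein coding, and no other annotated gene overlaps any of the 4. None of the 451 words of 50 bases in the last 500 bases of each longest coding transcript was found in a protein coding transcript of another gene. This also held for Rdh7, whose family has several close copies. Only exact matches were sought, and pseudogenes and noncoding transcripts were not searched.

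The DNA just before the start of Alb and Rbp4 is shown because the mRNAs of these 2 genes differed between groups. Sequences are from RefSeq on GRCm38.p6, 5′ to 3′ on the strand of the gene, each up to 250 bases before an annotated start. For Alb and the first stretch of Rbp4 this RefSeq start lies upstream of the gene bounds given above, and distances count from the RefSeq start. Capitals mark short motifs, searched on both strands. One is GTTAAT, a half-site of the hepatocyte factor HNF1. Another is CCAAT, found before many genes and bound by several factors. A further one is the core of the TATA box, spelled TATAAA, around which the transcription machinery assembles. The last is TGTTTAC, the core of a site for the FOXA factors of the liver. The Alb stretch is chr5:90460620-90460869 on the plus strand. The Rbp4 stretches are chr19:38125322-38125571 and, before a second annotated start, chr19:38124829-38124954, both on the minus strand, the latter shortened to the bases outside annotated exons.
Alb: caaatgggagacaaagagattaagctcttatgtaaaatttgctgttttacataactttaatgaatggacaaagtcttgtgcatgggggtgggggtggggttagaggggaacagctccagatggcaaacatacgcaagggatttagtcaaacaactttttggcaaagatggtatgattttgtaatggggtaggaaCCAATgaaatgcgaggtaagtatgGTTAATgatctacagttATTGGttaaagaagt
Rbp4: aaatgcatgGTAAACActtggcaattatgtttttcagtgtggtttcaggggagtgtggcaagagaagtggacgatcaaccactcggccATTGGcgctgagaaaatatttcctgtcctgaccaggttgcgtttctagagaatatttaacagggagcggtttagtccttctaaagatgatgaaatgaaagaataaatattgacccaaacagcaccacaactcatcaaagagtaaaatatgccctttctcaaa
Rbp4, second start: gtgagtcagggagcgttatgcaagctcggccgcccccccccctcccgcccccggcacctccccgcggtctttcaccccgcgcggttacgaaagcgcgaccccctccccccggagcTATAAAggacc
The Alb stretch holds the HNF1 half-site once, 32 bases before the start, and the CCAAT letters on each strand, 56 and 15 bases before the start. The first Rbp4 stretch holds the CCAAT letters once and the FOXA core once, both on the opposite strand and so printed as their reverse complements. The second start has the TATA core 28 bases before it, counted to the start itself, which lies beyond the end of its shortened stretch. Over the 250-base windows of 32851 annotated starts, 6.43% hold the HNF1 half-site, 33.85% the CCAAT letters, 12.37% the TATA core and 3.17% the FOXA core. The letters AGGTCA, a half-site for retinoid and thyroid hormone receptors, are in neither the Alb nor the Rbp4 windows and in 14.02% of all. These motifs did not overlap one another, and a match describes the letters only.

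The libraries held 14158740 to 37410773 reads over the listed genes. Hepatocyte markers dominated: 9 of 10 listed markers were measured, with a summed level of 17189 to 29672 CPM (counts scaled to 1000000 reads over the listed genes). The macrophage list had 2 of 10 markers measured and the endothelial list 2 of 8, with summed levels of at most 184 and 102 CPM, the bile duct list had 2 of 6 with at most 48.2 CPM and the stellate cell list 1 of 10 with at most 25.3 CPM. None of 6 lymphocyte markers was measured. In these bulk libraries fewer cells of a type and less RNA per cell cannot be told apart. Mitochondrial rRNA took 0.278 to 0.487% of reads in the 3 libraries of 2 µM TTR-1236 and 0.383 to 1.10% in those of 2 µM Reference 4. It took 1.47 to 3.73% in the 9 libraries at 0.2 µM and 0.622 to 2.21% with 2 µM TTR-1186. Of the PBS libraries, replicates 1 and 2 had 3.26 and 2.70% and replicate 3 only 0.797%. Whether this share had a part in the results below was not tested, and results against PBS are given without PBS replicate 3 where leaving it out changed a call of Rbp4, Alb or Rdh7 in a single group.

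Ttr, on chromosome 18 from 20665280 to 20674321 on the plus strand, fell to under 1% of its PBS mean in every treated group. The PBS libraries had 2272, 2168 and 2336 CPM, a mean of 2258 ± 84.7 CPM (SD, n = 3). With 0.2 µM the libraries had 10.6, 9.92 and 5.25 CPM for TTR-1236, 8.45, 9.62 and 3.19 CPM for TTR-1186 and 17.2, 17.6 and 4.99 CPM for Reference 4. With 2 µM they had 14.9, 17.3 and 7.77 CPM, 7.59, 15.1 and 10.4 CPM, and 27.1, 17.4 and 12.9 CPM in the same order of agents. All 18 treated libraries lay below all PBS libraries, which was the case for 0.362% of the genes measured, and the lowest treated library still held 59 reads of Ttr. The group means were 0.314 to 0.848% of the PBS mean. On the log2(CPM + 1) scale Ttr fell by 7.93 and 7.37 with 0.2 and 2 µM TTR-1236, by 8.24 and 7.60 with TTR-1186 and by 7.48 and 6.87 with Reference 4. The largest of the 6 adjusted p-values (limma, Benjamini-Hochberg over all 9657 genes) was 8.23e-10, for 2 µM Reference 4. Because Ttr took only 0.217 to 0.234% of the reads of the PBS libraries, its loss could change the CPM of other genes by about that share.

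**Figure D1:**
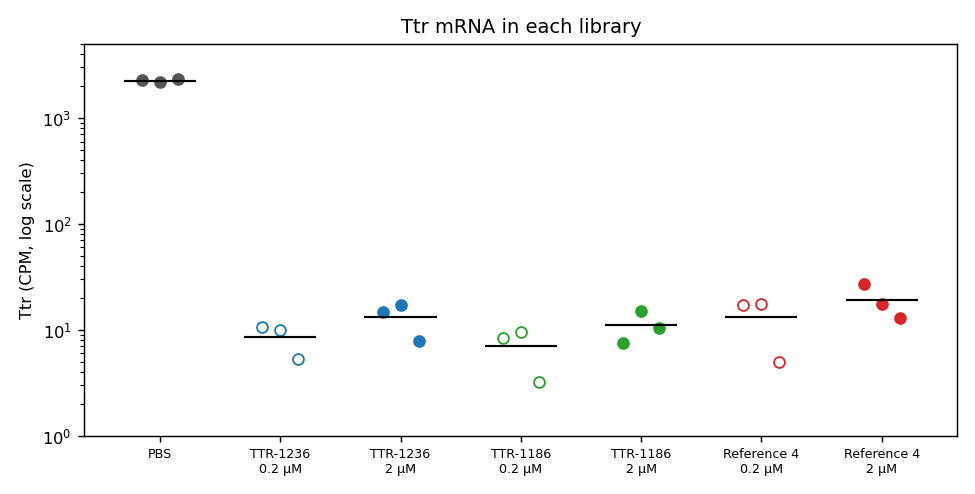
Ttr in each of the 21 libraries, in CPM on a log scale, by group; points are libraries, bars group means, open points 0.2 µM and filled coloured points 2 µM. The PBS libraries sit at 2168 to 2336 CPM and all 18 treated libraries at 3.19 to 27.1 CPM.

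The remaining Ttr did not separate the agents. Between agents at a matched dose, 6 pairs were compared, and the differences in log2 Ttr ran from -0.76 to 0.30 with adjusted p-values of 0.503 to 0.9999 (limma). The widest was TTR-1186 against Reference 4 at 0.2 µM, with a 95% interval of -1.63 to 0.11. Remaining Ttr was also not lower at the higher dose. In each agent the 2 µM mean lay above the 0.2 µM mean, by 0.56, 0.63 and 0.61 on the log2 scale for TTR-1236, TTR-1186 and Reference 4, with adjusted p-values of 0.655, 0.493 and 0.364. Over the 3 agents together, a contrast chosen after the values were seen, the difference was 0.60 ± 0.24 (SE) with an adjusted p of 0.0842.

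Rbp4, the binding partner, did not fall with Ttr; its group means were above that of PBS in all 6 treated groups, and it was called higher in 2 of the 6. PBS libraries had 842, 875 and 905 CPM (mean 874 ± 31.6 CPM, SD, n = 3). TTR-1236 gave 974, 1015 and 1061 CPM at 0.2 µM and 1038, 1132 and 1308 CPM at 2 µM. TTR-1186 gave 891, 976 and 887 CPM at 0.2 µM and 1110, 1084 and 933 CPM at 2 µM. Reference 4 gave 890, 1058 and 932 CPM at 0.2 µM and 1179, 1246 and 1154 CPM at 2 µM. No treated library lay below the PBS range, 3 lay within it and 15 of 18 above it. All 3 libraries lay above all PBS libraries in 4 groups, namely both doses of TTR-1236 and the 2 µM doses of TTR-1186 and Reference 4. Over all genes, that was the case for 6.38 and 7.08% with 0.2 and 2 µM TTR-1236, 5.77% with 2 µM TTR-1186 and 8.91% with 2 µM Reference 4.

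Rbp4 rose 1.32-fold with 2 µM TTR-1236 (log2 difference 0.40 ± 0.11, SE, 95% interval 0.16 to 0.64, adjusted p = 0.0386, limma) and 1.36-fold with 2 µM Reference 4 (0.45 ± 0.11, 0.21 to 0.68, adjusted p = 0.0409). In those comparisons 6.33 and 2.25% of all genes were called, 1.44 and 0.59% as higher and 4.89 and 1.66% as lower. With 2 µM TTR-1186 the difference was 0.25 (95% interval 0.01 to 0.49, adjusted p = 0.516). At 0.2 µM the differences were 0.22 with TTR-1236 (interval -0.02 to 0.45), 0.07 with TTR-1186 (-0.17 to 0.31) and 0.13 with Reference 4 (-0.10 to 0.37), with adjusted p-values of 0.637 to 0.892. At 0.2 µM the intervals thus bound any fall of Rbp4 at 0.17 on the log2 scale, while Ttr itself had fallen by more than 7.

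Both calls were close to the threshold. With the spread estimated from only the libraries compared, the adjusted p was 0.208 for TTR-1236 and 0.106 for Reference 4. Leaving out PBS replicate 1 or 2, or 2 µM replicate 2 or 3 of TTR-1236, ended the TTR-1236 call, and leaving out PBS replicate 1 or 2 or any of its own replicates ended the Reference 4 call. Without PBS replicate 3, the library with little mitochondrial rRNA, the differences were 0.43 and 0.47 with adjusted p-values of 0.0234 and 0.0167.

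Taking the 6 treated groups together, Rbp4 was 0.25 ± 0.09 (SE) above PBS on the log2 scale, with an adjusted p of 0.224 in limma, where 0.0725% of genes were called. An exact permutation test of this 1 gene over the 1330 ways to pick 3 of 21 libraries gave p = 0.0173, two-sided, unadjusted, where the smallest possible p was 0.000752. It treated all libraries as exchangeable, although the treated ones come from 6 groups of agent and dose. The dose contrasts over the 3 agents together were added after the values were seen. Rbp4 at 2 µM was 0.23 ± 0.07 above 0.2 µM (adjusted p = 0.0194) and 0.37 ± 0.09 above PBS (adjusted p = 0.0348), among 18.9 and 3.58% of genes called. The difference between doses kept an adjusted p under 0.05 in each of the 18 fits that left out 1 library, from 0.00912 to 0.0491. The difference from PBS kept it in 6 of 12. It lost it without PBS replicate 1 (adjusted p = 0.222) or 2 (0.144), without 2 µM TTR-1236 replicate 3 (0.0578), without 2 µM Reference 4 replicate 2 (0.0539) or 3 (0.0540) and without 2 µM TTR-1186 replicate 1 (0.0518), and had 0.0965 with only the libraries compared. Within single agents the dose difference did not pass: 0.18 for TTR-1236, 0.18 for TTR-1186 and 0.32 for Reference 4, with adjusted p-values of 0.571, 0.476 and 0.0679. The agents also did not differ from each other in Rbp4, with 6 differences from -0.20 to 0.15, intervals within -0.43 to 0.39 and adjusted p-values of at least 0.506. The 2 µM groups with the higher Rbp4 are also the ones with the lowest mitochondrial rRNA shares given above. Marker sums of 2 other cell types were higher there too. The summed level of the 2 measured macrophage markers, Csf1r and Cd68, was 102 to 157 CPM with 2 µM TTR-1236 and 128 to 157 CPM with 2 µM Reference 4, against 79.6 to 101 CPM with PBS. For the 2 measured bile duct markers, Krt19 and Sox9, it was 42.8 to 47.2 CPM and 44.5 to 48.2 CPM, against 29.1 to 42.3 CPM. With 0.2 µM TTR-1236, where Rbp4 was not called, the macrophage sum was also above PBS at 102 to 133 CPM. With 0.2 µM Reference 4, also without a call of Rbp4, it was 85.1 to 184 CPM. The endothelial sum was 72.1 to 89.8 CPM with 2 µM TTR-1236 and 74.4 to 85.8 CPM with 2 µM Reference 4, against 74.3 to 102 CPM with PBS. Dcn, the measured stellate marker, overlapped PBS in both groups. The part of these cells in the Rbp4 result was not tested.

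**Figure D2:**
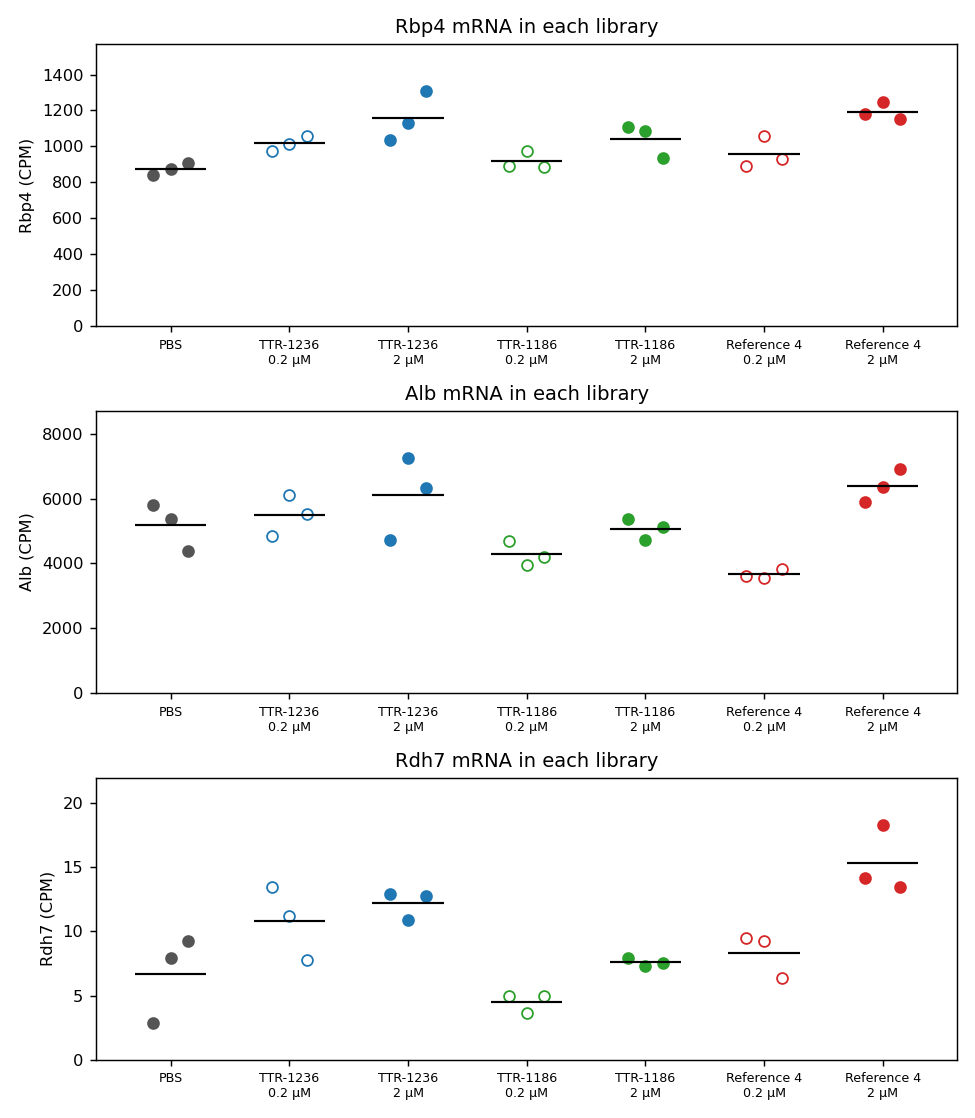
Rbp4, Alb and Rdh7 in each of the 21 libraries, in CPM from 0, by group; points are libraries, bars group means, open points 0.2 µM and filled coloured points 2 µM. Rbp4 is at 842 to 905 CPM with PBS and 1154 to 1246 CPM with 2 µM Reference 4, and Alb with Reference 4 is at 3559 to 3811 CPM at 0.2 µM and 5894 to 6913 CPM at 2 µM.

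Alb, the abundant general carrier, was not called against PBS in any group, and its clearest difference was between the doses of Reference 4. PBS libraries had 5809, 5353 and 4384 CPM (mean 5182 ± 728 CPM, SD, n = 3), a wide spread. Reference 4 gave 3616, 3559 and 3811 CPM at 0.2 µM, all below the PBS libraries, and 5894, 6358 and 6913 CPM at 2 µM, all above them. Such separation was found for 10.5% of genes below PBS at 0.2 µM and 8.91% above PBS at 2 µM. Between the 2 doses Alb rose by 0.80 ± 0.14 on the log2 scale (1.74-fold, 95% interval 0.52 to 1.08, adjusted p = 0.00224, limma), in a comparison that called 12.8% of genes, with 6.78% of all genes as higher. This call held in each of 15 alternatives, with values of 0.74 to 0.86. Against PBS the differences were -0.49 (interval -0.78 to -0.21, adjusted p = 0.115) at 0.2 µM and 0.31 (0.02 to 0.59, adjusted p = 0.206) at 2 µM. Without PBS replicate 3, the lowest PBS library for Alb, the 0.2 µM difference was -0.61 with an adjusted p of 0.0344, and the 2 µM difference was 0.19. The 2 doses of Reference 4 also differed in library traits. At 0.2 µM the libraries had 14158740 to 14971332 reads and 2.13 to 3.50% mitochondrial rRNA. At 2 µM they had 18802476 to 32927430 reads and 0.383 to 1.10%. The part of these traits in Alb, or in the later calls between these doses, was not tested.

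The other agents gave smaller dose differences in Alb. TTR-1236 gave 4833, 6118 and 5538 CPM at 0.2 µM and 4719, 7257 and 6327 CPM at 2 µM, overlapping each other and PBS, with a dose difference of 0.13 (adjusted p = 0.767). TTR-1186 gave 4701, 3952 and 4210 CPM at 0.2 µM and 5356, 4712 and 5109 CPM at 2 µM, a difference of 0.24 (adjusted p = 0.419) although the 2 ranges just did not overlap. Whether the agents differed in this respect was tested after the values were seen: the dose difference of Reference 4 exceeded that of TTR-1236 by 0.67 ± 0.19 (SE, 95% interval 0.26 to 1.07, adjusted p = 0.204) and that of TTR-1186 by 0.56 ± 0.19 (0.16 to 0.96, adjusted p = 0.458), and neither passed. The first passed in 1 alternative, without 2 µM TTR-1236 replicate 2 (0.80, adjusted p = 0.0491). In limma no gene passed either of these tests, with 914 and 874 genes at an unadjusted p under 0.05, and none did in edgeR. DESeq2 called 66 and 25 genes, but not Alb (adjusted p = 0.218 and 0.135). Over the 3 agents together Alb at 2 µM was 0.39 ± 0.08 above 0.2 µM (adjusted p = 0.00235), where 18.9% of all genes were called. This contrast was added after the values were seen, and Alb passed in all 18 fits that left out 1 library. At 0.2 µM TTR-1236 exceeded Reference 4 by 0.58 ± 0.14 (interval 0.30 to 0.86, adjusted p = 0.0710), which passed with DESeq2 (0.0214) and with only the libraries compared (0.00803). That comparison called no gene in the main fit, and the number called ran from 0 to 499 of 9657 over the alternatives. For Alb the other 5 pairs of agents had differences of -0.34 to 0.36 and adjusted p-values of at least 0.310. Averaged over the 6 treated groups Alb differed from PBS by -0.03 (interval -0.24 to 0.19, adjusted p = 0.932), and its sign turned with other scalings, at 0.01 with TMM (trimmed mean of M values) factors.

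Rdh7, the retinol dehydrogenase, was low in these cells and was not called against PBS in any group. PBS libraries had 2.86, 7.95 and 9.26 CPM (mean 6.69 ± 3.38 CPM, SD, n = 3), resting on 41 to 244 reads. TTR-1236 gave 13.4, 11.2 and 7.77 CPM at 0.2 µM and 12.9, 10.9 and 12.8 CPM at 2 µM. TTR-1186 gave 4.94, 3.63 and 4.93 CPM at 0.2 µM and 7.93, 7.31 and 7.56 CPM at 2 µM. Reference 4 gave 9.46, 9.22 and 6.34 CPM at 0.2 µM and 14.1, 18.3 and 13.5 CPM at 2 µM. All libraries of 2 µM TTR-1236 and 2 µM Reference 4 lay above all PBS libraries, as did those of 7.08 and 8.91% of all genes, and the libraries of the other groups overlapped PBS. In these 2 groups the mitochondrial rRNA shares were lowest and the macrophage and bile duct marker sums above PBS, as given for Rbp4.

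The largest Rdh7 difference from PBS was that of 2 µM Reference 4, 1.19 ± 0.34 (SE, 95% interval 0.50 to 1.88, adjusted p = 0.0565, limma), followed by 0.89 with 2 µM TTR-1236 (0.20 to 1.58, adjusted p = 0.107). Without PBS replicate 3 the latter was 1.16 and passed, with an adjusted p of 0.0299. The Reference 4 difference passed with a pseudocount of 5 (adjusted p = 0.0485), with TMM factors (0.0470), with DESeq2 (0.0246) and without PBS replicate 3 (0.0106), and had an adjusted p of up to 0.294 when another library was left out. The other 4 differences from PBS ran from -0.37 to 0.71 with adjusted p-values of at least 0.642. Over the 3 agents together Rdh7 at 2 µM was 0.55 ± 0.19 above 0.2 µM with an adjusted p of 0.0488, where 18.9% of all genes were called. This contrast was added after the values were seen, and in none of the 18 fits that left out 1 library did Rdh7 pass. Between agents the widest difference was TTR-1236 over TTR-1186 at 0.2 µM, 1.08 (interval 0.39 to 1.77, adjusted p = 0.558).

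**Figure D3:**
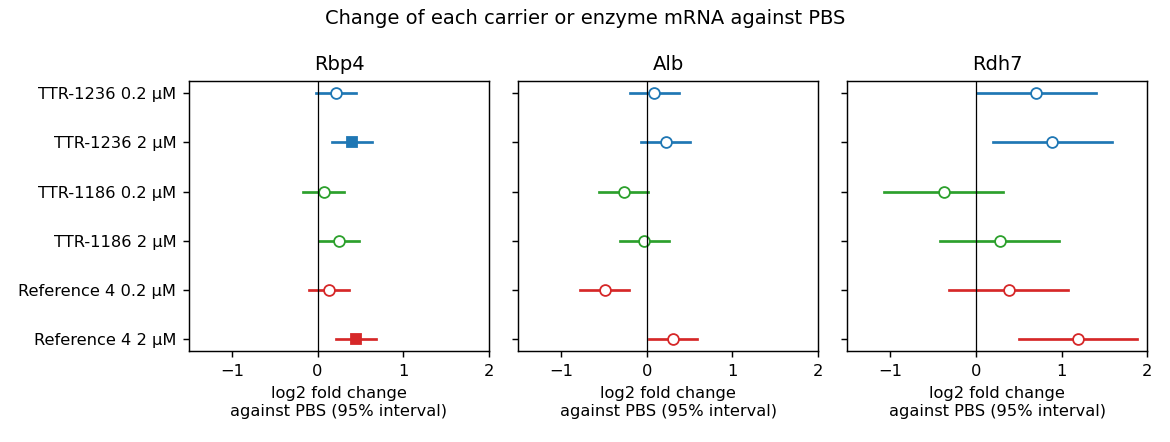
Log2 fold change of Rbp4, Alb and Rdh7 against PBS on the log2(CPM + 1) scale, by agent and dose; points are limma estimates, lines their 95% intervals, filled squares an adjusted p under 0.05. Rbp4 with 2 µM TTR-1236 (0.40) and 2 µM Reference 4 (0.45) are the filled squares, and Alb and Rdh7 have none. All 6 estimates use the same 3 PBS libraries.

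Among the 18 treated libraries, the level of Ttr that was left was set against the other 3 mRNAs. Rbp4 had a Pearson r of 0.40 (Spearman rho 0.40) with residual Ttr, with permutation p-values of 0.101 and 0.105 (0.151 and 0.157 adjusted by Benjamini-Hochberg over the 3 pairs). Alb had an r of 0.20 (rho 0.16), with permutation p-values of 0.423 and 0.530 (the same after adjustment). For Rdh7 the r was 0.58 (rho 0.60), with permutation p-values of 0.0119 and 0.0102 (adjusted 0.0357 and 0.0307), so that libraries with more residual Ttr had more Rdh7. The permutation moved libraries across groups, so differences between groups also enter this result. With group means subtracted, over the same 18 libraries, r was 0.32 and did not pass (adjusted permutation p = 0.472). Over fewer libraries it kept its sign but did not pass. Without the 2 farthest from the median of Ttr, at 3.19 and 27.1 CPM, r was 0.44 (adjusted permutation p = 0.265). Within the 9 libraries at 0.2 µM r was 0.46 (rho 0.63) and within the 9 at 2 µM 0.45 (rho 0.50), with adjusted permutation p-values of 0.541 and 0.682 for r. For Rbp4 the r was -0.09 with group means subtracted, and 0.23 and 0.07 within the doses.

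**Figure D4:**
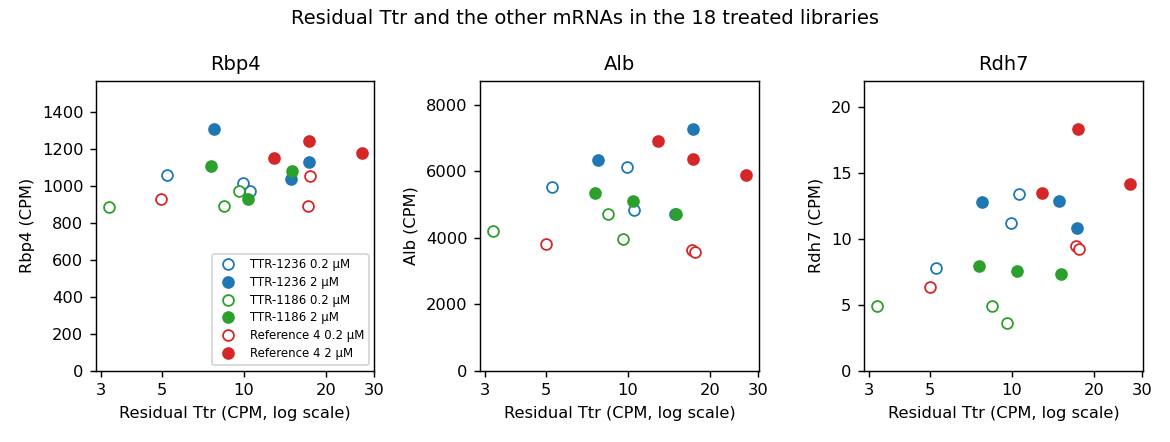
Rbp4, Alb and Rdh7 (CPM, from 0) against residual Ttr (CPM, log scale) in the 18 treated libraries, coloured by agent, with open points at 0.2 µM and filled points at 2 µM. Rbp4 spans 887 to 1308 CPM while Ttr spans 3.19 to 27.1 CPM, and Rdh7 is highest in the 3 libraries of 2 µM Reference 4 and in 1 library of 0.2 µM TTR-1236.

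The genes whose profiles were most like those of the members were ranked by Pearson r of log2(CPM + 1) among protein coding genes averaging 10 CPM or more, as a description over libraries that share groups and depth. Rbp4 was closest to Pgk1, a glycolytic kinase (r = 0.95 over 21 libraries), followed by Chchd10, Rpl35a, Ftl1 and Ddt (0.85 to 0.88). Pgk1 had means of 587 CPM with PBS, 875 CPM with 2 µM TTR-1236 and 855 CPM with 2 µM Reference 4. Alb was closest to the chaperone gene Hspa8 (0.92), then Tlcd1, Ppia, Idh3b and Ndufb3 (all 0.90). Rdh7 was closest to Ngdn (0.83), then Pxn, Tpi1, Ndufa6 and Polr1c. Over the 18 treated libraries Ttr was closest to Saa2 (0.89) and Saa1 (0.85), which encode serum amyloid A, an acute phase protein, then Defb1, Hamp, the hepcidin gene, and Elp5. Of the members themselves, Rbp4 and Rdh7 were most alike (r = 0.68 over 21 libraries), Rbp4 and Alb had 0.55 and Alb and Rdh7 0.41. Many other genes were closer to each. By r, Rbp4 ranked 51 of 6651 genes for Rdh7 and 862 of 6650 for Alb. Alb ranked 430 of 6650 for Rbp4 and 955 of 6651 for Rdh7.

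The measured genes of the wider retinoid pathway gave no call against PBS in limma. Of 50 genes of retinoid carriage and metabolism, 22 were measured, and none of the 20 besides Rbp4 and Rdh7 passed in any of the 6 comparisons with PBS (limma). Lrat, Stra6, Cyp26a1, Cyp26b1 and Aldh1a2 were among those not measured, as was the receptor gene Rarb. At 2 µM, 12, 15 and 14 of the 20 were higher than PBS with TTR-1236, TTR-1186 and Reference 4, with median differences of 0.07, 0.16 and 0.16 on the log2 scale where the medians of all genes were -0.07, -0.01 and -0.03. In each of these comparisons 1 of the 20 had an unadjusted p under 0.05, where 23.2, 9.22 and 20.2% of all genes did. Over all 6 comparisons there were 6 such values of 120, where 6.89 to 23.2% of all genes had them. edgeR called none of the 20 either, and DESeq2 called Rdh5, another retinol dehydrogenase, once. Adh1, an alcohol dehydrogenase that also oxidises retinol, had 349 ± 87.5 CPM with PBS and 521 ± 66.8 CPM with 0.2 µM Reference 4 (SD, n = 3, difference 0.60, adjusted p = 0.152). It had 330 ± 21.8 CPM at 2 µM, and so fell by 0.65 between the doses of Reference 4 (adjusted p = 0.0265). Adh5, an alcohol dehydrogenase known for clearing formaldehyde, was the other of the 20 called in that comparison and rose by 0.79 (adjusted p = 0.0140). That comparison called 12.8% of all genes, 6.78% as higher. The Adh1 call was lost without replicate 1 or 2 at 0.2 µM or any 1 replicate at 2 µM (adjusted p = 0.0521 to 0.116), and the Adh5 call without replicate 2 at 0.2 µM (0.0553) or replicate 3 at 2 µM (0.0911). Aldh1a1, which turns retinal into retinoic acid, had 851 ± 57.9 CPM with PBS and 544 ± 292 CPM with 0.2 µM Reference 4 (adjusted p = 0.208). None of the 4 measured retinoid receptor genes passed in limma, edgeR or DESeq2. In limma 2 of their 24 comparisons with PBS had an unadjusted p under 0.05, where 6.89 to 23.2% of all genes did in the 6 comparisons. Rarg, a retinoic acid receptor, had 8.68 ± 4.77 CPM with PBS and 2.73 to 6.18 CPM in the means of the treated groups, and Rxra, the shared partner receptor, had 69.9 ± 12.9 CPM and 54.8 to 63.9 CPM.

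The measured thyroid hormone genes also gave no call against PBS. Of 29 listed genes of hormone handling (transport, deiodination, conjugation, receptors, coregulators and others) 18 were measured, and of 17 listed targets 12. Dio1, Dio2, Thrb, Slc10a1 and Slco1b2 were among those not measured. None of the measured genes passed in the 6 comparisons in limma, edgeR or DESeq2. Of the 18, 8, 9 and 7 were higher than PBS at 2 µM of TTR-1236, TTR-1186 and Reference 4, with median differences of -0.19, -0.0026 and -0.21. In these comparisons 3, 4 and 6 of the 18 had an unadjusted p under 0.05, against the 23.2, 9.22 and 20.2% of all genes. The 4 Ugt1a genes among them share their last exons and had near-identical values. They are thus 1 measurement, which the counts and medians above hold 4 times. They encode enzymes that conjugate hormones and drugs to glucuronic acid. Between the doses of Reference 4, 12.8% of all genes were called, 6.78% as higher. Only these 4 of the 18 were called there, higher at 2 µM by 0.74 to 0.80 (adjusted p = 0.0290 to 0.0475, limma). That call was lost when any 1 replicate at 0.2 µM was left out, or without replicate 2 or 3 at 2 µM (0.0549 to 0.176). Sult1a1, a sulfotransferase, had 87.0 ± 37.1 CPM with PBS and 40.5 ± 15.6 CPM with 0.2 µM Reference 4 (adjusted p = 0.120). Of the 12 target genes 11, 8 and 10 were lower than PBS at 2 µM in the same order of agents, with median differences of -0.28, -0.16 and -0.19, and 1, 1 and 3 had an unadjusted p under 0.05. Thrsp, a lipogenic gene induced by the hormone, had 31.6 ± 9.44 CPM with PBS and 18.5 to 46.3 CPM in the treated means. Bcl3, another hormone-responsive gene, had 64.3 ± 11.1 CPM with PBS and 43.4 ± 4.46 CPM with 0.2 µM TTR-1186 (adjusted p = 0.382).

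Calls did occur among the other secreted carriers of plasma. Of 27 measured besides Alb and Rbp4, 3 fell and 1 rose at 2 µM of TTR-1236, and 3 fell and 1 rose at 2 µM of Reference 4, where 4.89 and 1.66% of all genes fell and 1.44 and 0.59% rose. The list was chosen with earlier results of these data known, so its counts beside these shares only describe the listed genes. Those that fell were Hp, the haemoglobin binder haptoglobin, Cp, the copper protein ceruloplasmin, and Fetub, fetuin B, and the 1 that rose was Lcn2, a lipocalin that binds iron-carrying siderophores. Hp went from 5123 ± 332 CPM with PBS to 2857 ± 828 CPM with 2 µM TTR-1236 and 2955 ± 192 CPM with 2 µM Reference 4 (log2 -0.88 and -0.79, adjusted p = 0.00421 and 0.0130). For Cp the differences were -1.07 and -0.91 (adjusted p = 0.00451 and 0.0175), and for Fetub -0.97 and -1.05 (0.0243 and 0.0279). Lcn2 rose by 0.54 and 0.68 (adjusted p = 0.0461 and 0.0280), in the same groups as Rbp4. Igfbp1, a carrier of insulin-like growth factors, fell in the other 4 groups, by 0.99 with 0.2 µM TTR-1236, by 1.32 with 0.2 µM TTR-1186 and by 1.41 with 0.2 µM Reference 4 (adjusted p = 0.0495, 0.000588 and 0.000192). With 2 µM TTR-1186 it fell from 386 ± 38.4 CPM to 174 ± 29.5 CPM (adjusted p = 0.00539). In these 4 comparisons, in this order, 0.0207, 0.0311, 0.166 and 0.0518% of all genes were called. Of these 12 calls edgeR made 10, without Fetub at 2 µM TTR-1236 (adjusted p = 0.0688) and Igfbp1 at 0.2 µM TTR-1236 (0.133), and DESeq2 made all and added Orm1, an acute phase carrier, once. The Igfbp1 call at 0.2 µM TTR-1236 held in only 4 of 15 alternatives and was lost without PBS replicate 1 or 2 or any of its own replicates (0.159 to 0.372), while that at 0.2 µM Reference 4 held in all 15. At 2 µM TTR-1186 the Igfbp1 call was lost without PBS replicate 1 (0.0916). With 2 µM Reference 4, leaving out PBS replicate 1 or 2 or its own replicate 3 ended the calls of Hp, Cp, Fetub and Lcn2 (0.0526 to 0.140). Leaving out its replicate 1 ended those of Fetub (0.0670) and Lcn2 (0.0858), and its replicate 2 that of Fetub (0.0645). With 2 µM TTR-1236 the calls of Hp and Cp held whichever library was left out, and those of Fetub and Lcn2 were lost without PBS replicate 1 or 2 or its own replicate 2 or 3 (0.0776 to 0.180). With only the libraries compared, 8 of the 12 calls were lost, at adjusted p-values of 0.0667 to 0.283. The 2 groups with calls of Hp, Cp, Fetub and Lcn2 are those with the low mitochondrial rRNA shares and the higher macrophage and bile duct marker sums.

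None of 9 measured hepatocyte nuclear factors known to act on the Ttr or Alb promoters passed against PBS in limma or edgeR, and DESeq2 called Cebpb once. In limma 9 of their 54 comparisons had an unadjusted p under 0.05, where 6.89 to 23.2% of all genes did in the 6 comparisons. Cebpb, a factor of the acute phase, had 88.2 ± 17.1 CPM with PBS and 52.5 ± 4.45 CPM with 0.2 µM Reference 4 (difference -0.72, adjusted p = 0.0864). Hnf4a, a master regulator of hepatocyte genes, had 42.9 ± 11.4 CPM with PBS, 24.1 ± 3.13 CPM with 0.2 µM Reference 4 and 47.0 ± 12.4 CPM at 2 µM. Between the doses of Reference 4 it rose by 0.91 ± 0.25 (adjusted p = 0.0198, limma) and was the only 1 of the 9 called. That comparison called 12.8% of all genes, 6.78% as higher. Alb rose by 0.80 in it, and a link between the 2 was not tested. The Hnf4a call was lost without replicate 2 at 0.2 µM (0.0692) or without replicate 2 (0.101) or 3 (0.0818) at 2 µM.

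**Figure D5:**
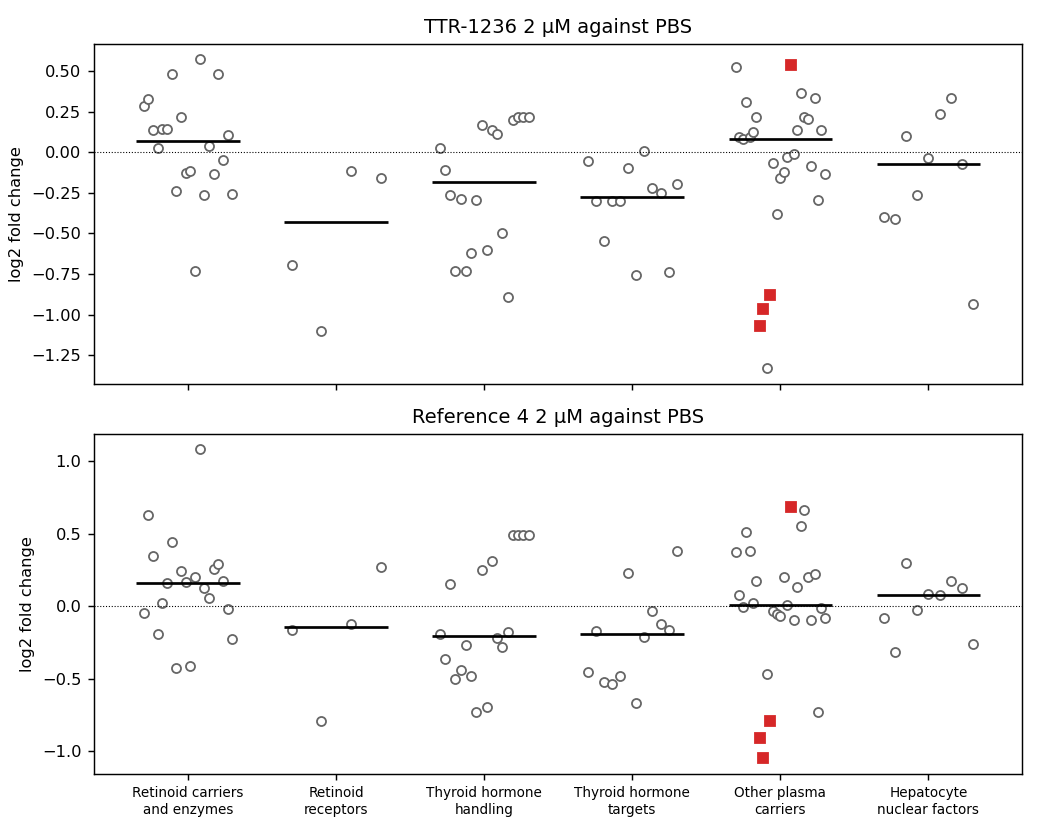
Log2 fold change against PBS for the measured genes of 6 lists, without Ttr, Rbp4, Alb and Rdh7, with 2 µM TTR-1236 (top) and 2 µM Reference 4 (bottom); points are genes, bars list medians, filled squares an adjusted p under 0.05 in limma. The filled squares all lie among the other plasma carriers: Hp, Cp and Fetub below 0 and Lcn2 above 0 in both panels.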

How the data were processed

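The members and gene lists were chosen with earlier results of these data known. The tools named are cutadapt 1.15, HISAT2 2.1.0 and featureCounts, with the build mm10, per the submitters' processing notes; their settings, strand and annotation release were not stated in the sources read here. The authors deposited CPM, summing to 1000000 per library over 9657 genes, of which 9652 matched a GENCODE symbol. All values were whole reads within 0.001 reads (100%). No further filter was applied. CPM was tested as log2(CPM + 1) with limma 3.58.1 in R 4.3.3 (trend, robust, 7 group means, all 21 libraries share the spread), adjusted over all genes at 0.05; fold changes are on that scale and understate changes of low genes. The procedure was tested on simulated data. Alternatives were a pseudocount of 0.5 or 5, only genes averaging 10 CPM or more, TMM scaling, edgeR 4.0.16 and DESeq2 1.42.0 on recovered reads, only the libraries compared, a replicate block, and each library left out; applying them to called genes of the lists was chosen after seeing the data. TMM scaling moved the median of all genes by less than 0.1. No 2 libraries of a group agreed within sampling noise. Named are the 4 members, up to 6 called genes per list or else the 2 of smallest p, and the 5 genes most like each member; mitochondrial rRNA and markers describe the libraries. One gene that this rule names is not reported here. Intervals of fits come from limma, and read totals cover the listed genes only.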

Additional observations from a re-analysis of the deposited data

How the results depend on the processing

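The fall of Ttr passed in every alternative and comparison with PBS. For Rbp4 with 2 µM Reference 4 the call was lost with TMM scaling (0.49), edgeR with TMM factors (0.48) and only the libraries compared (0.45), and with 2 µM TTR-1236 only in the last (0.40); leaving out 1 library gave 0.42 to 0.47 and 0.31 to 0.48. The exact permutation test passed for the mean of treated groups (0.25). Rdh7 with 2 µM Reference 4 passed with a pseudocount of 5 (0.84), TMM (1.22) and DESeq2 (1.22) and ran from 0.76 to 1.46 with 1 library left out; with 2 µM TTR-1236 it ran from 0.46 to 1.16. Alb with 0.2 µM Reference 4 ran from -0.61 to -0.40.

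Differences that were not called changed sign. Alb over all treated groups was 0.0145 with TMM, 0.0152 with edgeR and TMM factors, 0.0285 with edgeR and DESeq2 size factors and 0.0285 with DESeq2, and -0.14 to 0.0597 with 1 library left out. With 1 library left out, Alb ran from -0.14 to 0.0605 with 2 µM TTR-1186, -0.0275 to 0.18 with 0.2 µM TTR-1236, -0.0018 to 0.31 between the doses of TTR-1236 and -0.22 to 0.0881 for TTR-1236 against Reference 4 at 2 µM. Rdh7 ran from -0.16 to 0.55 with 2 µM TTR-1186, -0.0556 to 0.65 with 0.2 µM Reference 4, -0.20 to 0.51 for the mean of 0.2 µM groups and -0.0151 to 0.34 between the doses of TTR-1236. Rbp4 ran from -0.14 to 0.0295 for TTR-1236 against Reference 4 at 2 µM and -0.11 to 0.0103 for TTR-1186 against Reference 4 at 0.2 µM, and the Ttr difference between TTR-1236 and TTR-1186 at 0.2 µM from -0.12 to 0.59. The r of Rbp4 with residual Ttr was -0.0884 with group means subtracted, and that of Alb -0.25, and -0.28 at 0.2 µM alone. The cause was not tested.

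Replicate numbers did not pair the libraries: deviations of same-numbered libraries had a mean correlation of 0.01 (-0.47 to 0.34 over 63 pairs). With the number as a replicate block no call of a member against PBS changed, Rbp4 keeping adjusted p-values under 0.05; the dose difference of Ttr over the 3 agents (0.60) passed with an adjusted p of 0.0247, and that of Rdh7 (0.55) no longer passed (0.0619). Igfbp1 with 0.2 µM TTR-1236 no longer passed (0.0908). Calls over all genes went from 13 to 44 between the doses of TTR-1236, from 611 to 657 with 2 µM TTR-1236 and from 217 to 288 with 2 µM Reference 4, and the latter 2 counts spanned 22 to 1588 and 6 to 1272 over all alternatives. Rdh7, at 41 reads in its poorest library, is the member most limited by depth.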
